A study of Mus musculus with 6 samples.

Results

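The 9 genes described here encode receptors through which nerves and hormones act on heart cells, together with the peptide ligand of one receptor pair. They were taken by symbol from a mouse annotation of the build GRCm38, each symbol matching 1 of the 52550 gene rows counted. The adrenergic receptors were Adrb1, Adra1a and Adra1b. The receptors that slow the heart were the muscarinic Chrm2 and the adenosine receptor Adora1. The endothelin genes were the ligand Edn1 and its receptors Ednra and Ednrb, and Gipr encodes the receptor of the incretin hormone GIP. In cardiomyocytes labelled as carrying a deletion of the glucocorticoid receptor (GR-cKO), Gipr, Ednrb and Adrb1 were higher, and Edn1, Adra1b, Ednra and Chrm2 were lower than in control cells. The calls of Ednra, Chrm2 and Adrb1 did not hold under every choice of processing and libraries. Adora1 did not pass the test, and Adra1a was too scarce to be tested.

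Tags from the 3' ends of transcripts were sequenced from cardiomyocytes of newborn mice kept in culture, in 2 groups of 3 libraries. The first group, GR-cKO, is labelled as deleted for that receptor in cardiomyocytes, and the second is labelled only as control. The promoter behind the deletion, the deleted exon and the alleles of the controls were not stated in these sources. In both groups hearts were taken on postnatal day 1, cells were dissociated enzymatically, cardiomyocytes were enriched by magnetic sorting, and cultures spent 48 hours with serum (5% from horse, 10% fetal bovine) and then 24 hours without it. All 6 samples carry the same control treatment label, so no hormone was compared. The labels call the libraries biological replicates and do not say which animals or cultures each came from. The p-values therefore describe the spread among these 6 libraries, part of which may be technical.

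As background, noradrenaline from sympathetic nerves acts on heart muscle mainly through the beta-1 receptor, which couples to the stimulatory G protein and raises cyclic AMP, and also through alpha-1 receptors, which couple to Gq and phospholipase C. Acetylcholine from the vagus nerve and adenosine act through receptors coupled to inhibitory G proteins, which lower cyclic AMP and open a potassium channel. Endothelin-1 is a vasoconstrictor peptide made as a larger precursor, cut by endothelin-converting enzymes, and bound by an A and a B receptor. Endothelium is a main source of it in the body, and cardiomyocytes can make it too.

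Gene counts summed to 19371508 to 22583596 per library. Levels are given as CPM, counts scaled by library size. Where a gene had 0 counts, its level may still reach 0.136 to 0.155 CPM, the value of 3 counts, and this limit covers counting error only. Nr3c1, the glucocorticoid receptor gene, was at 46.2, 42.8 and 44.1 CPM in GR-cKO libraries, against 68.2, 73.9 and 72.4 CPM in control libraries. Since the tags come from the 3' end and the deleted exon was not stated, this level is no full check of the label. Xist was at 0 to 0.0996 CPM in GR-cKO, against 271 to 293 CPM in control, while the Y-linked Ddx3y was at 86.4 to 94.7 CPM in GR-cKO, against 18.3 to 21.3 CPM in control. Sex composition and genotype therefore cannot be told apart in any result given here. All 10 cardiomyocyte markers had counts, with 8 of them higher and 1 lower in GR-cKO. Having counts is a weak check of the cell label, as genes on the other marker lists had them too. The summed level of the cardiomyocyte markers was 49901 to 50653 CPM in GR-cKO and 38916 to 39874 CPM in control. This was above the sum of every other marker list given below, although such sums depend on the genes listed. Fewer cells of a type and less RNA per cell cannot be told apart in such bulk samples.

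Across all genes 2132 of 14386 tested, or 14.8%, passed edgeR's quasi-likelihood test at an adjusted p below 0.05, with 7.63% higher and 7.19% lower in GR-cKO. Of the 9 genes 8 had enough counts to be tested, and 7 of these passed, 3 higher and 4 lower. The groups did not overlap for any of the 8, as for 29.9% of all tested genes. The genes were proposed with earlier results of these data known, so their share is a description and not a test.

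**Figure D1:**
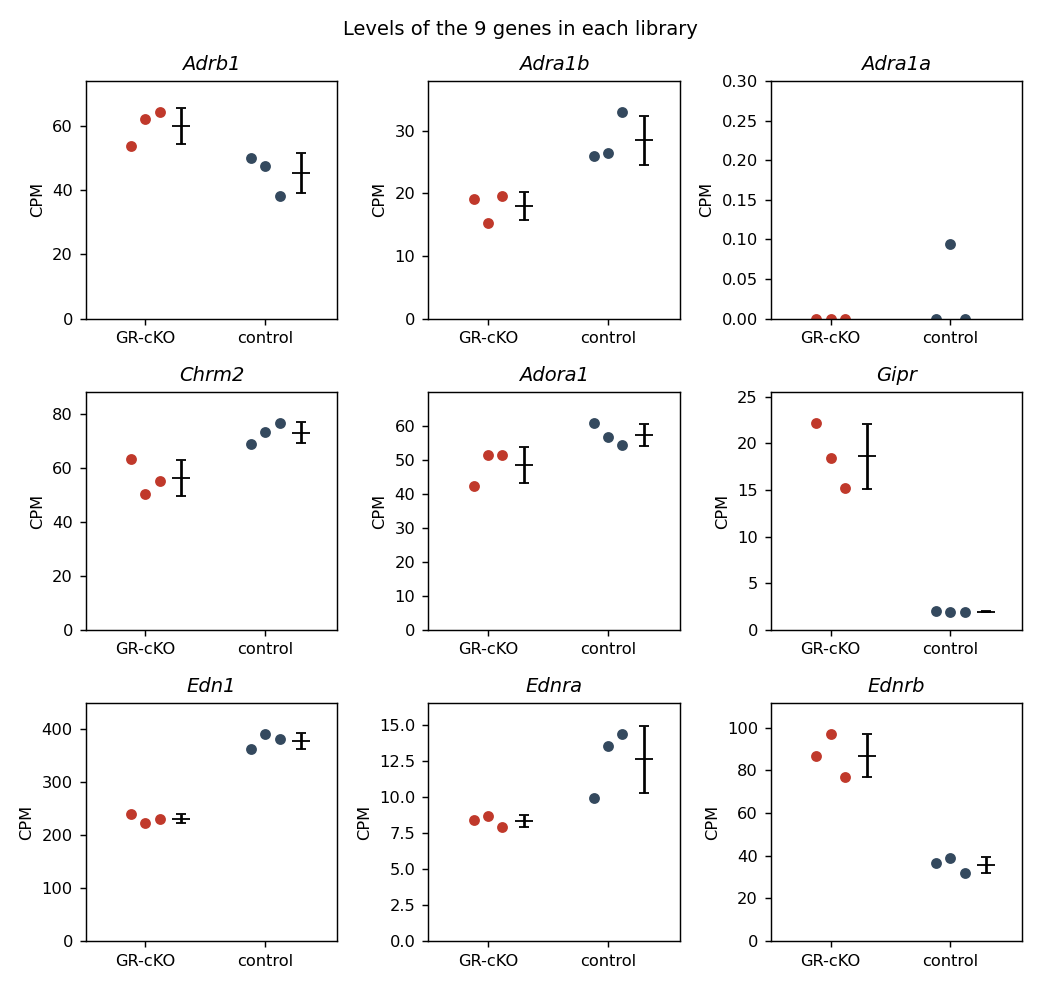
Level of each of the 9 genes in CPM (vertical axes, each starting at 0) in the 3 GR-cKO libraries (left, red) and the 3 control libraries (right, dark blue), with the mean and SD beside the points except for Adra1a. Edn1 lay between 222 and 239 CPM in GR-cKO, against 361 to 389 CPM in control, and Gipr between 15.2 and 22.2 CPM, against 1.87 to 1.97 CPM.

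Among the adrenergic receptors Adrb1 rose and Adra1b fell. Adrb1 (ENSMUSG00000035283, GRCm38 chromosome 19, 56722199 to 56733113, plus strand) encodes the beta-1 receptor, the main route by which noradrenaline speeds and strengthens the heartbeat. It stood at 53.7, 62.0 and 64.3 CPM in GR-cKO libraries 1 to 3, against 50.2, 47.4 and 38.2 CPM in control libraries 1 to 3. Every GR-cKO library lay above every control library, with GR-cKO replicate 1 and control replicate 1 the closest pair. The rise was 1.33-fold (log2 fold change 0.41 ± 0.11, SE; edgeR quasi-likelihood test, adjusted p = 0.00902). Without control replicate 3, the lowest library, it was 0.30 and no longer passed (edgeR, adjusted p = 0.0675).

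Adra1b (ENSMUSG00000050541, GRCm38 chromosome 11, 43774606 to 43901210, minus strand) encodes the alpha-1B receptor, which signals through Gq. Its level was 19.1, 15.3 and 19.5 CPM in GR-cKO libraries, against 26.0, 26.4 and 33.0 CPM in control libraries. The highest GR-cKO library was thus below the lowest control library. The log2 fold change was -0.66 ± 0.13 (SE; edgeR, adjusted p = 0.000963), and it stayed past the threshold in all 13 alternatives run. Adrb1 made up 75.2% ± 3.24 of the summed counts of 9 adrenergic receptor genes in GR-cKO and 60.3% ± 7.0 in control (SD, n = 3 each), and Adra1b made up 22.6% ± 3.11 and 38.1% ± 6.17 in GR-cKO and control.

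Adra1a (ENSMUSG00000045875, GRCm38 chromosome 14, 66635251 to 66771168, plus strand), the gene of the other alpha-1 receptor of heart muscle, was almost undetected. It had 0 counts in each GR-cKO library, and 0, 2 and 0 counts in the control libraries. No fold change can be given, and the planned ratio of Adra1a to Adra1b rests on these 2 counts. Tags that end outside the annotated 3' end would not be counted, so this value limits the counted tags rather than the receptor. Among the 6 other adrenergic receptor genes only Adrb3 had enough counts to be tested, at 0.455 ± 0.0584 CPM in GR-cKO and 0.565 ± 0.422 CPM in control, and it did not pass (edgeR, adjusted p = 0.855).

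The receptors that restrain the heart were lower or did not pass. Chrm2 (ENSMUSG00000045613, GRCm38 chromosome 6, 36388084 to 36528414, plus strand) encodes the M2 muscarinic receptor, through which the vagus nerve slows the heart. Its levels were 63.3, 50.1 and 55.0 CPM in GR-cKO libraries, against 68.9, 73.3 and 76.5 CPM in control libraries. The groups did not overlap, and GR-cKO replicate 1 lay nearest to the controls. The log2 fold change was -0.38 ± 0.09 (SE; edgeR, adjusted p = 0.00653). It no longer passed without GR-cKO replicate 2 (-0.30, edgeR adjusted p = 0.0679) or with scaling by ERCC spike-in RNA (-0.28, edgeR adjusted p = 0.130). One noncoding gene on the opposite strand, 9330158H04Rik, shares 142 exon bases with Chrm2 and stood at 46.0 ± 2.49 CPM in GR-cKO and 44.4 ± 4.84 CPM in control. The strand setting of the counting was not stated, so reads from the shared bases cannot be told apart.

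Adora1 (ENSMUSG00000042429, GRCm38 chromosome 1, 134199223 to 134235431, minus strand) encodes the A1 adenosine receptor, which slows conduction through the atrioventricular node. It was measured at 42.3, 51.5 and 51.2 CPM in GR-cKO libraries, against 60.7, 56.6 and 54.3 CPM in control libraries. Although no GR-cKO library reached the lowest control library, the gap was small against the spread. The log2 fold change of -0.24 ± 0.10 did not pass (SE; edgeR, adjusted p = 0.0996), nor did it in any of the 13 alternatives. Mybph, on the opposite strand, shares 1162 exon bases with Adora1 but was at only 0.195 ± 0.23 CPM in GR-cKO and 0.189 ± 0.214 CPM in control. Among the other adenosine receptor genes Adora2a, whose product couples to the stimulatory G protein, rose to 4.61, 4.48 and 3.86 CPM in GR-cKO, against 0.480, 0.328 and 0.790 CPM in control (log2 fold change 3.01 ± 0.42; edgeR, adjusted p = 1.25e-05). Adora2a passed the filter on low counts through the GR-cKO group, and Adora1 remained the main adenosine receptor gene, with 87.3% ± 2.58 of the counts of 4 such genes in GR-cKO and 94.4% ± 1.02 in control (SD, n = 3 each).

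The ratio of Adrb1 to Chrm2 counts within a library sets the sympathetic receptor against the parasympathetic one without any scaling between libraries. It was 0.849, 1.24 and 1.17 in GR-cKO libraries, against 0.729, 0.646 and 0.5002 in control libraries. All 3 GR-cKO ratios lay above the control ratios. The mean log2 ratio was 0.10 ± 0.29 in GR-cKO and -0.70 ± 0.28 in control (SD, n = 3 each), a difference of 0.79. An exact two-sided permutation test gave p = 0.1, the smallest that 3 libraries against 3 allow, and p = 0.15 after adjustment over the 3 ratios compared, so the design cannot place this difference past the threshold.

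**Figure D2:**
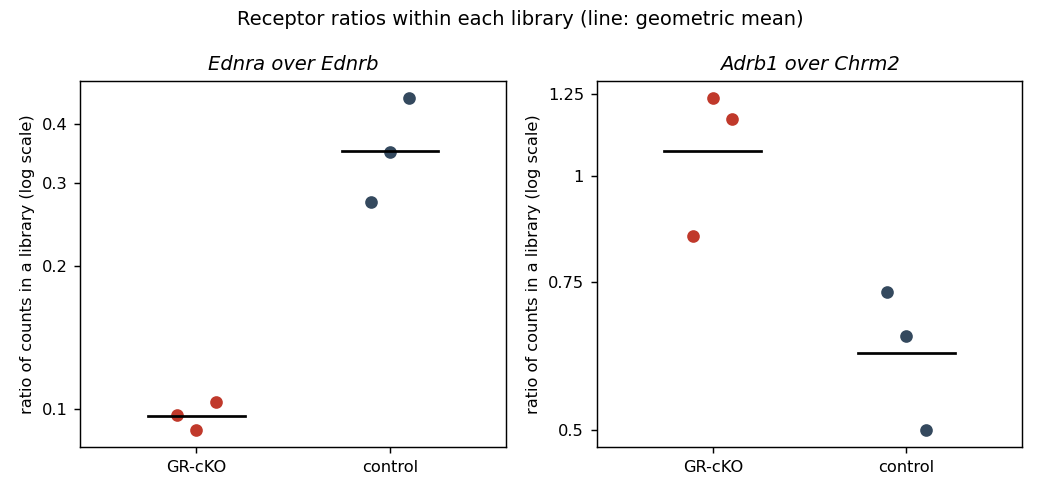
Ratio of counts within each library (vertical axes, log scale) for Ednra over Ednrb (left panel) and Adrb1 over Chrm2 (right panel) in the 3 GR-cKO libraries (left, red) and the 3 control libraries (right, dark blue). Lines are geometric means. The Ednra ratios lay between 0.0901 and 0.103 in GR-cKO, against 0.273 to 0.454 in control.

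The endothelin genes moved apart: the ligand gene Edn1 and the A receptor gene Ednra fell, while the B receptor gene Ednrb rose. The call of Ednra ended in 6 of 13 alternatives. The stretches before the annotated starts of Edn1 and Ednrb, whose changes were the largest of the endothelin genes and opposite in sign, are shown to let the letters be compared. They are 250 bases each from RefSeq on GRCm38.p6, written 5′ to 3′ on the gene's strand, at chr13:42301226-42301475 (plus strand) for Edn1 and chr14:103843702-103843951 (minus strand) for Ednrb, which lies inside the wider GENCODE span of the gene but outside its exons. Capitals mark the single match to any of 4 motifs searched on both strands.
Edn1: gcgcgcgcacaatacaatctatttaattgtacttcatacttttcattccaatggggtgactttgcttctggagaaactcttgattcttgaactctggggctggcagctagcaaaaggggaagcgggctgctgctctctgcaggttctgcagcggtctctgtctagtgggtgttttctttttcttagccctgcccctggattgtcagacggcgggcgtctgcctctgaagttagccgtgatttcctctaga
Ednrb: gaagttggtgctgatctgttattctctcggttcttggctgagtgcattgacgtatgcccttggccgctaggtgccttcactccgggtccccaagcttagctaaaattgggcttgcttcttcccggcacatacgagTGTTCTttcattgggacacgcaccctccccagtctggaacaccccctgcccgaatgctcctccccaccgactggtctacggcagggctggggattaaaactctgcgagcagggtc

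The match in Ednrb is the glucocorticoid receptor half-site AGAACA read on the opposite strand, and it begins 115 bases before the start. This motif is found in 16.1% of 32851 windows of the same length before RefSeq starts. The others searched were the hypoxia-inducible factor core ACGTG (16.6% of windows), the AP-1 motif TGANTCA (6.75%) and the GATA motif AGATAA (9.99%), none of which overlap one another here. The Edn1 window held no match to the 4 motifs. Windows of 7 of the 9 genes were in the RefSeq table, and AGAACA was in none of them but that of Ednrb. Adra1b held TGANTCA in 1 of its 2 windows, Adora1 held ACGTG and TGANTCA in 1 of its 2, and Adrb1, Chrm2 and Ednra held none of the 4. A match is a string of letters and not a measured site, and bases outside these windows were not searched.

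Edn1 (ENSMUSG00000021367, GRCm38 chromosome 13, 42301476 to 42307990, plus strand) encodes the precursor of endothelin-1 and was the most abundant of the 9 genes in both groups. It stood at 239, 222 and 230 CPM in GR-cKO libraries, against 361, 389 and 380 CPM in control libraries. The groups were far apart and each was tight, with a coefficient of variation of 3.64% in GR-cKO and 3.88% in control. The log2 fold change was -0.71 ± 0.07, so that GR-cKO held 0.611 of the control level (SE; edgeR, adjusted p = 2.86e-08). It stayed past the threshold in all 13 alternatives, between -0.74 and -0.62. An antisense gene, Gm47118, shares 35 exon bases with Edn1 and had 0 counts in every GR-cKO library and 0 to 5 counts in the control libraries.

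Ece1, which encodes the main enzyme that cuts the endothelin-1 precursor to its active form, was also lower. It measured 466, 452 and 462 CPM in GR-cKO libraries, against 532.2, 575.6 and 589.5 CPM in control libraries (log2 fold change -0.30 ± 0.06; edgeR, adjusted p = 0.00144). This call ended with ERCC scaling (-0.21, edgeR adjusted p = 0.156). The related enzyme gene Ece2, the ligand gene Edn3 and Mme, a peptidase that degrades endothelins, did not pass, so of 4 tested endothelin genes besides the 3 described here 1 fell and none rose.

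Ednra (ENSMUSG00000031616, GRCm38 chromosome 8, 77663031 to 77724464, minus strand) encodes the A receptor, the contractile endothelin receptor of vascular smooth muscle, which is also present on cardiomyocytes. It was at 8.40, 8.72 and 7.93 CPM in GR-cKO libraries, against 9.97, 13.5 and 14.4 CPM in control libraries. Control replicate 1 lay close to the GR-cKO libraries. The log2 fold change of -0.60 ± 0.18 passed (SE; edgeR, adjusted p = 0.0250), close to the threshold. The call ended when GR-cKO replicate 1, 2 or 3 was left out (edgeR, adjusted p = 0.0692, 0.0572 and 0.0723), with log2 fold changes of -0.60, -0.63 and -0.55. It also ended without control replicate 2 (-0.54, edgeR adjusted p = 0.102) or 3 (-0.49, edgeR adjusted p = 0.1096), and with ERCC scaling (-0.51, edgeR adjusted p = 0.0837). The opposite-strand gene 4933431K23Rik shares 91 exon bases with it and was at 1.34 ± 0.316 CPM in GR-cKO and 2.05 ± 0.777 CPM in control.

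Ednrb (ENSMUSG00000022122, GRCm38 chromosome 14, 103814625 to 103844402, minus strand) encodes the B receptor, which on endothelium releases nitric oxide and clears endothelin-1 from the blood. It stood at 86.8, 97.0 and 76.9 CPM in GR-cKO libraries, against 36.6, 38.8 and 31.7 CPM in control libraries. The lowest GR-cKO library was well above the highest control library. The rise was 2.43-fold (log2 fold change 1.28 ± 0.10, SE; edgeR, adjusted p = 1.85e-09), and it passed in all 13 alternatives, between 1.20 and 1.38. Only 3.22% of tested genes had a larger log2 fold change in size.

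The ratio of Ednra to Ednrb counts was 0.0970, 0.0901 and 0.103 in GR-cKO libraries, against 0.273, 0.349 and 0.454 in control libraries. The mean log2 ratio was -3.37 ± 0.10 in GR-cKO and -1.51 ± 0.37 in control (SD, n = 3 each), a difference of -1.86. The exact two-sided permutation test gave p = 0.1, the smallest possible, and p = 0.15 after adjustment over 3 ratios. Ednrb thus made up 91.2% ± 0.549 of the receptor counts in GR-cKO and 73.9% ± 4.9 in control.

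Endothelial markers mostly rose, as Ednrb did and Edn1 and Ednra did not. Of 12 such markers 8 were higher and 1, Emcn, was lower, and their summed level was 1605 to 1790 CPM in GR-cKO and 1452 to 1549 CPM in control. Vwf stood at 31.9 ± 3.22 CPM in GR-cKO and 11.3 ± 3.02 CPM in control, and Kdr at 102 ± 7.28 CPM and 37.9 ± 3.46 CPM (SD, n = 3 each). Pecam1, a general endothelial marker, was at 313 ± 4.95 CPM in GR-cKO and 273 ± 18.2 CPM in control. Emcn was at 159 ± 5.13 CPM in GR-cKO and 247 ± 5.98 CPM in control. Eng had a lower mean in GR-cKO, at 328 ± 48.2 CPM against 384 ± 70.4 CPM in control. Tek and Cldn5 had higher means, and Tek, Eng and Cldn5 did not pass. Of 10 smooth muscle and pericyte markers 6 were higher and none lower, with a sum of 6904 to 7045 CPM in GR-cKO and 4956 to 5177 CPM in control. Most of it was Acta2, at 3835 ± 116 CPM in GR-cKO and 3294 ± 54.8 CPM in control, and Des, at 2438 ± 183 CPM and 1242 ± 67.4 CPM. The sum thus follows these 2 genes more than the rest of the list. Myh11 was at 3.92 ± 0.916 CPM in GR-cKO and 5.96 ± 1.51 CPM in control, and Tagln at 157 ± 19.0 CPM and 184 ± 5.32 CPM. These 2 did not pass, nor did Kcnj8 and Abcc9. Of 10 fibroblast markers 4 were higher and 1 lower, with sums of 4791 to 4913 CPM and 3706 to 3897 CPM in GR-cKO and control. Most of each sum came from the collagen genes Col1a1 and Col1a2. Col1a1 had a mean of 1911 CPM in GR-cKO and 1385 CPM in control, and Col1a2 of 1629 CPM and 1200 CPM. Col3a1 and Postn were also higher. Dcn was lower, with a mean of 427 CPM in GR-cKO and 550 CPM in control. Pdgfra, Ddr2 and Thy1 had lower means in GR-cKO, Tcf21 and Lum had higher ones, and none of these passed. Of 10 leukocyte markers 6 were tested and 2, Lyz2 and Tyrobp, were higher, with a sum of 35.3 to 55.5 CPM in GR-cKO and 14.1 to 18.2 CPM in control. Most of that sum was Lyz2, at 40.6 ± 9.66 CPM in GR-cKO and 12.9 ± 2.25 CPM in control, while Cd68, Csf1r, Cd14 and Fcer1g did not pass. Tyrobp, with 39, 26 and 41 counts in GR-cKO and 4, 1 and 7 in control, passed the filter on low counts through the GR-cKO group. None of 4 tested Schwann and neural markers passed (edgeR), and this list summed to 15.6 to 22.4 CPM in GR-cKO and 24.3 to 25.9 CPM in control. Of 7 epicardial markers 2 were higher and 2 lower, with a sum of 95.0 to 114 CPM in GR-cKO and 101 to 106 CPM in control. Krt19 was at 41.4 ± 3.96 CPM in GR-cKO and 8.45 ± 1.42 CPM in control and Msln was also higher, whereas Tbx18 was at 44.7 ± 3.99 CPM in GR-cKO and 65.5 ± 2.86 CPM in control and Upk3b was also lower. Neither of 2 tested erythroid markers passed (edgeR), with sums of 3.52 to 5.00 CPM in GR-cKO and 1.31 to 3.21 CPM in control. Every gene on these lists had counts in at least 1 library. The part of these cells in the results on Edn1, Ednra and Ednrb was not tested.

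Gipr (ENSMUSG00000030406, GRCm38 chromosome 7, 19156061 to 19166127, minus strand) encodes the receptor of glucose-dependent insulinotropic polypeptide, a gut hormone best known for raising insulin release, and couples to the stimulatory G protein. It had 491, 371 and 295 counts in GR-cKO libraries, against 41, 40 and 39 counts in control libraries. These are levels of 22.2, 18.5 and 15.2 CPM in GR-cKO and 1.97, 1.87 and 1.93 CPM in control. The control libraries were nearly equal, whereas the GR-cKO libraries spread more widely. Gipr rose 9.67-fold (log2 fold change 3.27 ± 0.21, SE; edgeR, adjusted p = 5.22e-11), and only 0.236% of tested genes had a larger change in size. The alternatives gave 3.13 to 3.41, all past the threshold.

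Its ligand gene Gip had no count in any library. Of the 9 other genes of the incretin and glucagon family list, 2 had enough counts to be tested. Gcgr, the glucagon receptor gene, was lower, at 0.452, 0.199 and 0.155 CPM in GR-cKO, against 1.01, 1.499 and 1.14 CPM in control (log2 fold change -2.13 ± 0.67; edgeR, adjusted p = 0.0319). It passed the filter through the control group, and its call ended without GR-cKO replicate 2 (edgeR, adjusted p = 0.139) or 3 (0.123) and without control replicate 1 (0.0669), 2 (0.156) or 3 (0.0682). Adcyap1r1, the receptor gene of the peptide PACAP, was at 4.17 ± 0.758 CPM in GR-cKO and 4.21 ± 1.35 CPM in control and did not pass (edgeR, adjusted p = 0.988).

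**Figure D3:**
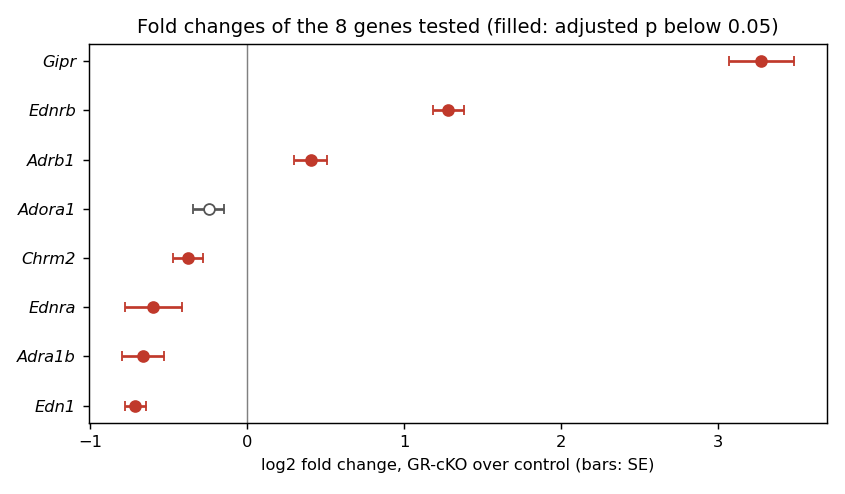
Log2 fold change of the 8 tested genes, GR-cKO over control (horizontal axis), with the standard error as bars. Filled points passed the adjusted p threshold of 0.05, and the open point, Adora1 at -0.24, did not. Gipr stands apart at 3.27.

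The order of the levels differed between the groups. Counts of 3' tags do not depend on transcript length, so CPM was used to order the genes, although priming near each 3' end may differ between them. In GR-cKO Edn1 (230 CPM) was followed by Ednrb (86.9), Adrb1 (60.0), Chrm2 (56.1), Adora1 (48.3), Gipr (18.6), Adra1b (17.99) and Ednra (8.35), with Adra1a at 0. In control Edn1 (377 CPM) was followed by Chrm2 (72.9), Adora1 (57.2), Adrb1 (45.3), Ednrb (35.7), Adra1b (28.5), Ednra (12.6), Gipr (1.92) and Adra1a (0.0312). Neighbours whose ranges overlapped were Adrb1 with Chrm2, Chrm2 with Adora1, and Gipr with Adra1b in GR-cKO, and Adrb1 with Ednrb and Ednrb with Adra1b in control. Ednrb therefore took place 2 in GR-cKO and place 5 in control, and Gipr place 6 in GR-cKO and place 8 in control.

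Profiles over the 6 libraries were compared by the root mean square distance between log2 levels, each centred on its own mean, among 9538 tested autosomal genes with a mean of at least 5 CPM, pseudogenes and unnamed loci left out. The gene nearest to Edn1 was Nr3c1, at a distance of 0.0143, followed by Nasp at 0.0367. In Edn1 and in Nr3c1 GR-cKO replicate 2 was the lowest library and control replicate 2 the highest, and the log2 fold changes were -0.71 and -0.69. Nr3c1 was picked as the nearest profile over these same 6 libraries, so the shared order is no separate evidence of a link. Nearest to Gipr were Bnip3 (0.163) and Mt2 (0.188), and nearest to Ednrb were Sprr1a (0.0810) and Cnn1 (0.0813). For Chrm2 they were Rnf145 (0.0290) and Rai14 (0.0458), for Adrb1 Slc30a9 (0.0374) and Abtb1 (0.0408), for Adra1b Mpped2 (0.0700) and Anxa1 (0.0924), and for Ednra Rab4a (0.0580) and Rcc1 (0.0763). With 6 libraries in 2 groups, the difference between the groups makes up most of each profile.

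Genes that carry the signals of these receptors changed about as often as genes at large. Of 127 other genes on 13 lists of receptors, G proteins, effectors, desensitising proteins and transmitter enzymes, 91 were tested and 15, or 16.5%, passed, 6 higher and 9 lower, with a median log2 fold change of 0.01 against -0.01 over all genes. With ERCC scaling 8 were higher and 3 lower. In the muscarinic arm, Kcnj3, a subunit of the potassium channel that Chrm2 opens, fell to 6.46, 7.12 and 6.44 CPM in GR-cKO, against 19.6, 22.1 and 23.5 CPM in control (log2 fold change -1.70 ± 0.15; edgeR, adjusted p = 1.85e-08). It was the only one of 7 inhibitory G protein and channel genes to pass, although 1 of them rose without control replicate 1. Its partner subunit Kcnj5 was at 16.8 ± 2.12 CPM in GR-cKO and 18.8 ± 0.793 CPM in control. Chrm3, the other muscarinic receptor gene tested, was at 1.93 ± 0.609 CPM and 3.61 ± 0.726 CPM in GR-cKO and control and did not pass (edgeR, adjusted p = 0.0923).

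On the stimulatory side, 1 of 10 tested genes of cyclic AMP formation fell and none rose, while without GR-cKO replicate 3 1 rose. The gene that fell was the adenylyl cyclase gene Adcy1, at 5.01 ± 1.49 CPM in GR-cKO and 9.77 ± 0.78 CPM in control (edgeR, adjusted p = 0.0035). The major cardiac cyclase genes Adcy5 and Adcy6 did not pass, at 101 ± 2.61 and 141 ± 11.5 CPM in GR-cKO and 104 ± 3.68 and 126 ± 1.46 CPM in control. Of 17 genes of cyclic AMP breakdown and protein kinase A 2 rose and 1 fell. The kinase-anchoring gene Akap6 rose (log2 fold change 0.33 ± 0.08; edgeR, adjusted p = 0.00385). Akap5 fell (-0.70 ± 0.20; edgeR, adjusted p = 0.0186), a call that ended without GR-cKO replicate 3 (0.0900) or control replicate 2 (0.163) and with ERCC scaling (0.0515). The phosphodiesterase gene Pde1a passed narrowly (0.34 ± 0.11; edgeR, adjusted p = 0.0454) and did not pass when any library except control replicate 1 was left out (0.0730 to 0.155), nor without a filter on low counts (0.0676). Of 15 genes of the Gq and phospholipase C arm 1 fell and none rose, whereas with ERCC scaling 1 rose and none fell. Without control replicate 3, with either other filter or with the replicate block 2 fell. The gene that fell was Gnaq, which encodes the Gq protein, at 49.96 ± 4.63 CPM in GR-cKO and 65.4 ± 2.15 CPM in control (edgeR, adjusted p = 0.00412, and 0.0932 with ERCC scaling).

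Of 14 genes that end receptor signals 2 rose and 1 fell. Rgs16 and Rgs5, which speed the shut-off of G proteins, rose, Rgs16 to 24.5 ± 2.88 CPM in GR-cKO, against 8.12 ± 1.32 CPM in control (edgeR, adjusted p = 6.55e-08), and Rgs5 to 11.2 ± 2.1 CPM, against 5.42 ± 1.46 CPM (edgeR, adjusted p = 0.00151). Rgs5 is also a pericyte marker. The receptor kinase gene Grk6 fell (log2 fold change -0.41 ± 0.12; edgeR, adjusted p = 0.0186), but not without GR-cKO replicate 3 (0.0951), control replicate 1 (0.1102) or control replicate 2 (0.0608), or with ERCC scaling (0.116). The kinase genes best known for the beta-1 receptor, Grk2 and Grk5, did not pass, at 47.2 ± 0.718 and 118 ± 6.3 CPM in GR-cKO and 49.6 ± 1.7 and 104 ± 4.54 CPM in control.

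Of 6 tested catecholamine genes 1 rose and 1 fell. Ddc, which makes dopamine, was at 101 ± 6.15 CPM in GR-cKO and 80.3 ± 14.1 CPM in control (edgeR, adjusted p = 0.0220), with overlapping groups, and its call ended without GR-cKO replicate 1 or 2 or control replicate 1 or 2 (0.0715 to 0.163). Maoa, an X-linked gene whose enzyme breaks down noradrenaline, was at 11.4 ± 2.67 CPM in GR-cKO and 16.4 ± 2.34 CPM in control (edgeR, adjusted p = 0.0447), and it did not pass without GR-cKO replicate 2 or 3 or control replicate 1 or 2 (0.0729 to 0.207), with ERCC scaling (0.151) or with DESeq2 (adjusted p = 0.0675). None of 3 acetylcholine genes passed (edgeR), with Bche at 6.83 ± 1.68 CPM in GR-cKO and 8.30 ± 1.29 CPM in control and Ache at 0.821 ± 0.42 CPM and 1.02 ± 0.312 CPM. Of 9 tested receptor genes of other hormones and amines 1 fell and none rose, though 1 rose under 7 of the 13 alternatives (RLE factors, ERCC scaling, DESeq2, both other filters, without X and Y genes, the replicate block) and 2 rose without GR-cKO replicate 3. The gene that fell was the growth hormone receptor gene Ghr, at 142 ± 8.51 CPM in GR-cKO and 181 ± 9.22 CPM in control (edgeR, adjusted p = 0.00136, and 0.0895 with ERCC scaling).

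**Figure D4:**
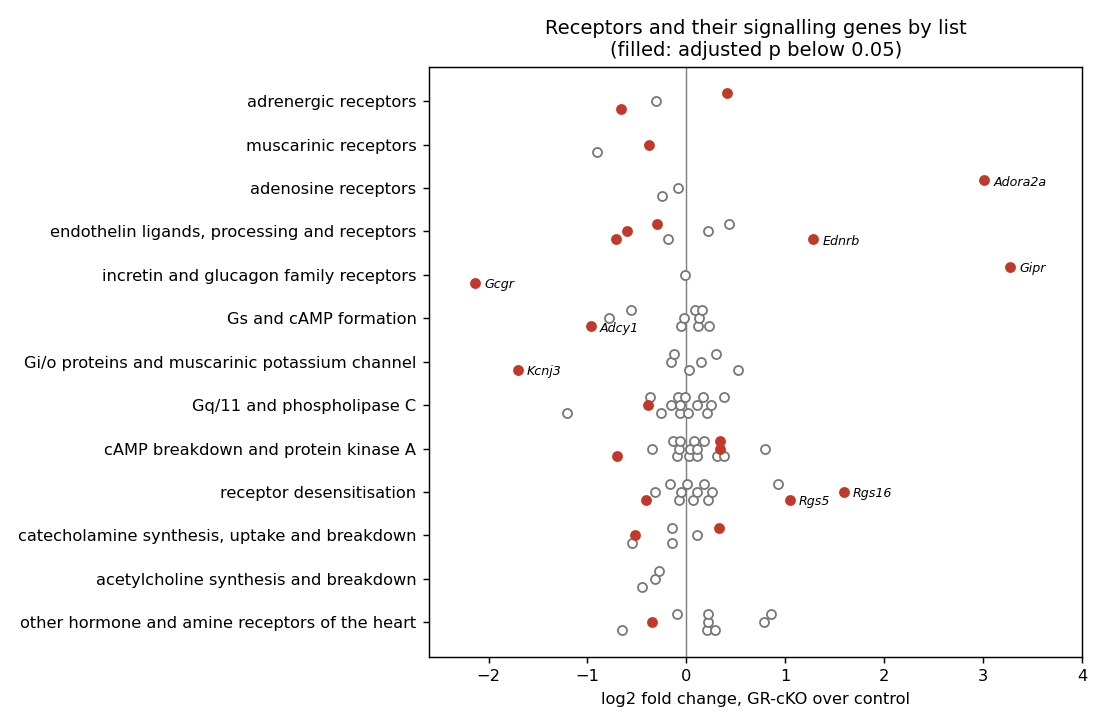
Log2 fold change, GR-cKO over control (horizontal axis), of the tested genes on the 13 lists of receptors and signalling genes (rows, the described genes included). Filled points passed the adjusted p threshold of 0.05, open points did not, and points are spread vertically only for legibility. Gipr (3.27), Adora2a (3.01) and Rgs16 (1.59) lie far to the right, and Gcgr (-2.13) and Kcnj3 (-1.70) far to the left.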

How the data were processed

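RNA of 3 GR-cKO and 3 control samples (100 ng each) went into QuantSeq 3' forward libraries, per the labels' protocols. The values deposited by the authors are unnormalized whole-number read counts for each gene. The submitters' processing notes name the aligner STAR 2.5.4a, the counter featureCounts 1.6.2, cutadapt 1.16, DESeq2 1.18.1, bcl2fastq, MultiQC 1.5, FastQC 0.11.7 and the build GRCm38. The strand setting and the handling of reads with several matches were not stated.

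Symbols and coordinates (1-based) came from GENCODE M21 on GRCm38, which matched 52403 of 52550 gene rows. The 92 ERCC and 7 SIRV spike-in rows (1.98% to 2.36% of counts) stayed out of library sizes and tests. Groups were compared by the quasi-likelihood test of edgeR 4.0.16 (R 4.3.3) with TMM factors (0.980 to 1.024), its default filter on low counts, and Benjamini-Hochberg adjustment over 14386 genes. The fit was tested on simulated data, where it called 14% of 1.25-fold, 50% of 1.5-fold, 72% of 2-fold and 84% of 3-fold changes. The changed genes were drawn at random from all levels, and those lost to the filter counted as missed. These rates therefore do not describe genes of a given level. Small changes were thus often missed there, and a gene that did not pass may still differ. Levels are TMM-scaled CPM. A fold change is GR-cKO over control. Its standard error is the size of the log2 fold change over the square root of F. Ratios had 0.5 counts added to each gene. Within each group the libraries differed beyond counting error (median chi-square per gene 2.48 to 3.69), so all 6 were counted.

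Alternatives were RLE factors, ERCC scaling, DESeq2 1.42.0, 2 other filters, leaving out X and Y genes, a replicate block and leaving out each library. The genes and lists were chosen with earlier results of these data known. All 9 genes are named, with Nr3c1, up to 4 called genes per list in order of p (2 as values where none was called), and the 2 nearest profiles. Named outside this rule, after their values were seen, were Adrb3, Chrm3, Adcyap1r1, Adcy5, Adcy6, Kcnj5, Grk2, Grk5, Ece2, Edn3, Mme and Gip. So were Agtr1a, Adra1d, Chrm4, Chrm5, Adora3, Glp1r, Htr2b, Htr4, genes overlapping the 9, and the sex and cell type markers.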

Additional observations from a re-analysis of the deposited data

How the results depend on the processing

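Of 13 alternatives, each gave Gipr, Ednrb, Edn1 and Adra1b as past the threshold with the same direction, and none did so for Adora1. The call of Chrm2 ended in 2, of Adrb1 in 1 and of Ednra in 6, with no change of sign. ERCC scaling, under which the median log2 fold change over all genes was 0.09 instead of -0.01, left 2 of the 9 genes lower (Edn1 and Adra1b) instead of 4, 522 of all genes lower instead of 1035, and 3 of the other signalling genes lower instead of 9. Leaving out 1 library at a time gave 2 to 4 lower genes among the 9, the 2 without GR-cKO replicate 2. The ratio of Adra1a to Adra1b, at a log2 difference of -0.09, turned to 0.51 with 5 counts added to each gene and ranged from -0.57 to 0.71 when 1 library was left out, since Adra1a had 2 counts in all. The fit with the replicate block called 2353 genes, and the same number of the 9, 7. Same-numbered libraries did not deviate together (correlation of deviations -0.00039, 0.022 and 0.039). No pairing by number was thus seen, but with so few libraries per group this cannot exclude one. With the pairing, the exact test of each ratio cannot go below p = 0.25. For a gene with 0 counts, depth leaves levels of up to 0.136 to 0.155 CPM possible.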

Other observations

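Several receptors studied in the heart left no tag in any of the 6 libraries. Of the 127 other receptor and signalling genes, 15 had 0 counts throughout, among them the alpha-1D adrenergic receptor gene Adra1d, the muscarinic genes Chrm4 and Chrm5, the adenosine receptor gene Adora3, the incretin receptor gene Glp1r and the serotonin receptor genes Htr2b and Htr4. A count of 0 allows up to 0.136 to 0.155 CPM in GR-cKO libraries and 0.141 to 0.148 CPM in control libraries. The angiotensin receptor gene Agtr1a was detected, at 1.95 ± 0.439 CPM in GR-cKO and 3.07 ± 1.184 CPM in control (SD, n = 3 each), and did not pass (edgeR, adjusted p = 0.308).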
